A study of Mus musculus with 6 samples.

Results

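The genes described here answered a combined drug treatment in the same direction in myeloid cells of the bone marrow and of the lung. They are the 5170 genes, of 22127 tested, whose log2 ratio of treated over mock had the same sign on all 6 arrays of the series and whose probe was well above background on 2 or more arrays of each tissue. Of these, 2850 were higher and 2320 were lower in treated cells. With signal well above background required in both channels, 2311 were higher and 2164 lower, so the excess of higher genes lies mostly in genes that met the limit through 1 channel. The background limit left 17578 genes, so the shared genes make up 16.2% higher and 13.2% lower of those within it. The counts of every list below are to be set against these shares. The members were chosen by the sign of the measured ratios, so their ratios are given below as a description without a test. Tests are given only for the difference between the tissues and for the mock level. With each array centred on its median in place of loess, the tissue difference passed for 1 shared gene in place of 585. None of the 30 differences flagged in the closing part passed then.

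Each array compared monocytic myeloid-derived suppressor cells (M-MDSCs) sorted by flow cytometry from C57BL/6 mice, and each tissue had 3 arrays. The Cy3 channel held RNA of mock mice, which received the vehicle and were 6 to 8 weeks old, from 1 to 2 mice per RNA. The Cy5 channel held RNA of mice treated with azacytidine plus entinostat, pooled from 3 to 6 mice per RNA, whose age is not given in the labels. The labels call the arrays of a tissue biological replicates. The replicate number is used here to name an array, and whether same-numbered arrays of the tissues share mice is not known. No array had the dyes exchanged. A dye effect of a probe would have the same sign on all 6 arrays, so treatment and dye cannot be told apart for any shared gene. The 2 tissues were run on separate slides, and a slide effect cannot be told apart from a tissue effect.

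M-MDSCs are immature monocyte-like cells that expand in tumour-bearing or inflamed animals and suppress T cells. Azacytidine is built into nucleic acids and traps DNA methyltransferases, which lowers DNA methylation at each division. Entinostat inhibits class I histone deacetylases, which take acetyl groups off histones and other proteins. Both classes of drug are known for switching on silenced genes. Type I interferons, in contrast, act from outside the cell: their receptor activates factors such as Stat2, which joins Irf9 to bind response elements in the promoters of antiviral genes.

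The scanner software marked 49.9% to 62.8% of spots as well above background in Cy3 and 55.1% to 69.5% in Cy5, and none as saturated. Precision is limited by the small number of arrays. The standard deviation of the ratios over all genes tested ranged from 0.254 to 0.33 for bone marrow and from 0.382 to 0.484 for lung. All 11 of the measured markers of M-MDSCs and monocytes, such as Itgam, Csf1r and Ccr2, were well above background in mock cells on every array of both tissues. Csf1r, the receptor of the monocyte growth factor, was itself not shared: its log2 ratio lay between -1.48 and -0.97 in bone marrow and between 0.58 and 1.02 in lung.

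Every signed value gives log2 of treated (Cy5) over mock (Cy3), the direction set by the dyes in the labels. The headings of the deposited ratio tables name the opposite direction. Most shared genes differed by little. The median average of the tissue means was 0.31 among the genes that were higher and -0.28 among those that were lower, against 0.02 for all genes within the limit. Each of 88 higher and 48 lower genes lay at least 0.5 from 0 on every array, and 12 higher genes and only Rtp4 among the lower ones lay at least 1 from 0 on every array. At the edge of the rule, Cdkn2a was inside with a first bone marrow array at 0.00011 and a lung array at 0.94, whereas Polq was outside with a first bone marrow array at -0.00017 and a lung array at 0.36. For all 22127 genes tested, 27.3% had the same sign on all 6 arrays, with 15.5% higher and 11.8% lower. A limma test of the average of the tissues called 36.6% of all genes tested and 4520 of the 5170 shared genes, which the choice by sign fixes in part.

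The size of the response was often larger in lung, for 63.5% of the higher and 60.0% of the lower genes, against 57.7% of all genes within the limit. The median in lung was 0.35 for the higher genes against 0.25 in bone marrow, and -0.31 for the lower genes against -0.24. The split into higher and lower depends on the scaling. With each array centred on its median in place of loess, 2255 genes were higher and 328 lower on all 6 arrays. That centring moved the median of all genes tested from 0.02 to 0.18, and 1293 of the 2320 lower genes kept an average below 0. Under the scanner software's processed signals the split was 2468 higher and 2702 lower.

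**Figure D1:**
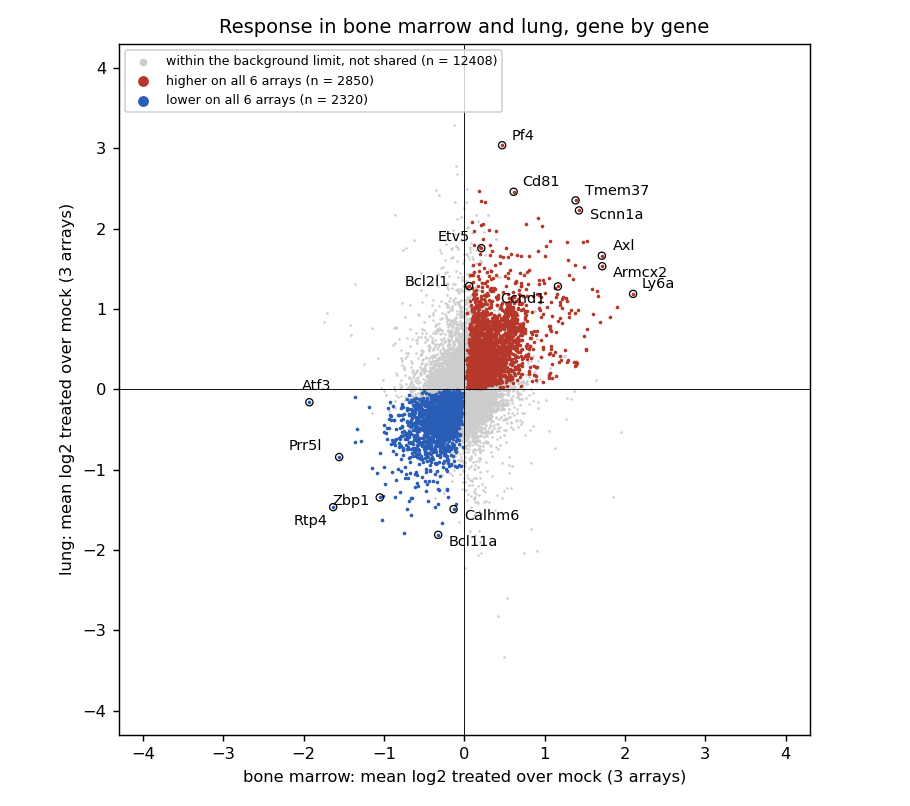
Each point is 1 gene within the background limit, placed by its mean log2 ratio of treated over mock on the 3 bone marrow arrays (horizontal) and the 3 lung arrays (vertical). The shared genes fill the upper right (red, n = 2850) and lower left (blue, n = 2320), grey points lack a common sign on all 6 arrays, and 1 gene lies beyond the axes. Circles mark genes named in the text, with Ly6a far out along bone marrow and Pf4 along lung.

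The genes that were higher on every array by the widest margin included surface receptors, adhesion proteins and a cyclin. Armcx2, an X-linked gene for an armadillo repeat protein, gave log2 ratios of 1.54, 1.81 and 1.80 on bone marrow replicates 1, 2 and 3 and of 1.75, 1.42 and 1.43 on lung replicates 1, 2 and 3. The tissues overlapped, with means of 1.72 ± 0.15 in bone marrow and 1.53 ± 0.19 in lung (SD, n = 3), and the average corresponds to a 3.09-fold higher signal. Axl, a receptor tyrosine kinase by which phagocytes bind dying cells, stood at 1.36, 1.68 and 2.09 in bone marrow and at 1.81, 1.74 and 1.44 in lung. The range in bone marrow was wider than that in lung and enclosed it. Mock lung had a higher Axl signal than mock bone marrow by 2.98 on the log2 scale (limma adjusted p = 1.9e-07), so the ratio was alike over mock levels that differed.

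Axl belongs to the TAM family of receptors, whose ligands Gas6 and Pros1 (protein S) bridge them to dying cells. Of its 5 genes for receptors and ligands, 3 were within the limit, and Axl and Pros1 were shared. Pros1 had log2 ratios of 0.29, 0.22 and 0.22 in bone marrow and of 0.99, 0.53 and 0.57 in lung. Every lung array lay above every bone marrow array, but the tissue difference did not pass (limma adjusted p = 0.0575). Gas6 was not shared, with a mean of -0.31 ± 0.27 in bone marrow and 2.42 ± 0.70 in lung. Mertk was below background in bone marrow and averaged 2.28 ± 0.22 in lung, while Tyro3 had both signs among the lung arrays.

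Ccnd2, which encodes the G1 cyclin D2, varied little between arrays, with 1.36, 1.30 and 1.47 in bone marrow and 1.68, 1.49 and 1.48 in lung. Ccnd1, its relative cyclin D1, had 0.71, 1.21 and 1.58 in bone marrow and 1.20, 1.26 and 1.39 in lung. Its mock signal in bone marrow was not well above background on any array, and its treated signal there was at least 2.24-fold higher. This value and the others given as "at least" are taken, on each array, against the higher of the probe's own mock signal and the lowest signal well above background; for Ccnd1 the value is that of its mean ratio. They are open to dye bias. Of 24 cell cycle genes within the limit, 5 were higher and 2 lower, with a list median of 0.04 against 0.02 for all genes. These shares are 20.8% and 8.33%, against 16.2% and 13.2% of all genes within the limit. Ccnd3, the third D cyclin, went the other way, at -0.18, -0.40 and -0.66 in bone marrow and -0.26, -0.31 and -0.42 in lung, a sign that turns with median centring. Cdkn2d, a cyclin-dependent kinase inhibitor, averaged -0.45, and the replication licensing gene Mcm3 averaged 0.42.

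Antigens of blood stem and progenitor cells were among the higher genes. Ly6a, the Sca-1 antigen, gave 1.93, 2.14 and 2.23 in bone marrow and 1.04, 1.52 and 1.00 in lung. Every bone marrow array lay above every lung array, and the tissue difference passed (limma adjusted p = 0.0108). Cd34, a sialomucin of progenitors and endothelium, had 1.46, 1.49 and 2.04 in bone marrow and 1.31, 1.00 and 1.19 in lung, again without overlap, although this difference did not pass (adjusted p = 0.086). Egfl7, a secreted protein of endothelium and stem cells, gave 1.61, 1.26 and 2.08 in bone marrow and 1.23, 0.91 and 1.54 in lung. Of 17 stem and progenitor genes within the limit, 6 were higher and 1 was lower, and the list median was 0.23. These shares are 35.3% and 5.88%, against 16.2% and 13.2% of all genes within the limit. Of the 17, 2 had no mock signal well above background in bone marrow. Flt3, the cytokine receptor of early progenitors and dendritic cell precursors, was the lower one, at -0.42, -0.01 and -0.48 in bone marrow and -0.62, -0.64 and -1.24 in lung. Kit, another progenitor receptor, was not shared, because bone marrow replicates 1 and 2 lay below 0.

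Beside these, 4 of the 5 endothelial markers within the limit were higher (Egfl7, Cldn5, Pecam1 and Flt1). That is 80.0%, against 16.2% of all genes within the limit, and Egfl7 is counted in both lists. Cldn5 could meet the limit in bone marrow only through the treated channel, which favours the higher direction. Of the 12 endothelial markers tested, 4 were well above background in mock bone marrow on all arrays and all 12 in mock lung. Cdh5, Cldn5, Ramp2, Tek, Tie1, Emcn, Esam and Clec14a were not well above background in mock bone marrow. The median ratio of the endothelial list on an array lay between 0.066 and 0.150 in bone marrow and between 0.656 and 1.06 in lung. In bulk RNA, more cells of a type and more RNA per cell cannot be told apart, and the part of endothelial cells in these results was not tested.

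Receptors for chemoattractants formed another group. Of 21 chemokines and receptors within the limit, 7 were higher on all 6 arrays and none was lower, with a list median of 0.62. The share of higher genes is 33.3%, against 16.2% of all genes within the limit. Fpr1, a receptor for bacterial formyl peptides, had 0.92, 1.92 and 1.04 in bone marrow and 1.51, 1.75 and 1.56 in lung. The tissues overlapped. The complement receptors behaved differently. C3ar1, the receptor of complement fragment C3a, stood at 0.32, 0.36 and 0.02 in bone marrow and at 1.59, 1.98 and 2.02 in lung (limma adjusted p of the tissue difference = 0.00128). C5ar1, the receptor of C5a, had means of 0.44 ± 0.19 in bone marrow and 1.57 ± 0.14 in lung (adjusted p = 0.0023). Fpr2, a formyl peptide receptor like Fpr1, averaged 0.85. The chemokine gene Ccl4 averaged 0.56, with means of 0.17 ± 0.12 in bone marrow and 0.94 ± 0.41 in lung (limma adjusted p of the tissue difference = 0.0364).

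Ccr2, the receptor that lets monocytes leave the marrow, went the other way. Its log2 ratios were -1.08, -0.54 and -0.91 in bone marrow and -1.64, -0.75 and -0.99 in lung, a signal 1.98-fold lower on average. The tissues overlapped and did not differ by the limma test (adjusted p = 0.443), and the mock levels differed by only 0.08 (adjusted p = 0.52). Cxcr2, a neutrophil chemokine receptor, was not shared, since lung replicate 3 lay at -0.16 while the other arrays lay between 0.21 and 1.41. Of 27 genes of monocyte identity within the limit, 5 were lower and 3 higher, and the list median was -0.07. These shares are 18.5% and 11.1%, against 13.2% and 16.2% of all genes within the limit. Ms4a6c and Ms4a6b, which encode membrane proteins of the CD20 family, averaged -0.57 and -0.50. Irf8, a transcription factor of the monocyte lineage, averaged 0.26, and Itgam, the CD11b integrin, averaged 0.48. The other 2 probes of Itgam averaged 0.44 and 0.31 and lay below 0 on 1 and on 2 arrays, so by them Itgam is not shared. Ms4a4c averaged 0.76 by its brightest probe, but its other probes averaged -0.42 and -0.60, so the probes of this gene disagree.

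Other genes of the leading set encode enzymes, channels and receptors. Adora3, the adenosine A3 receptor, gave 1.59, 1.78 and 1.08 in bone marrow and 1.73, 1.99 and 1.81 in lung. F7, which encodes coagulation factor VII, had 1.64, 1.52 and 1.32 in bone marrow and 1.95, 1.26 and 1.36 in lung. Lpl, lipoprotein lipase, had 1.54, 1.21 and 1.17 in bone marrow, and 2.17 on lung replicate 1 against 1.00 and 1.10 on the others. These 3 genes overlapped between the tissues. Scnn1a, a subunit of the epithelial sodium channel, gave 1.33, 1.79 and 1.16 in bone marrow and 1.86, 2.58 and 2.25 in lung, with a tissue difference that passed (limma adjusted p = 0.0478). Tmem37, which encodes a transmembrane protein, was higher in lung without overlap, at 1.60, 1.32 and 1.24 in bone marrow and 2.53, 2.32 and 2.21 in lung (adjusted p = 0.00457). Slamf9, of the SLAM receptor family, averaged 1.56, Ccm2l, a relative of the cerebral cavernous malformation gene Ccm2, averaged 1.36, and Cbx6, a Polycomb chromobox protein, averaged 1.21.

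**Figure D2:**
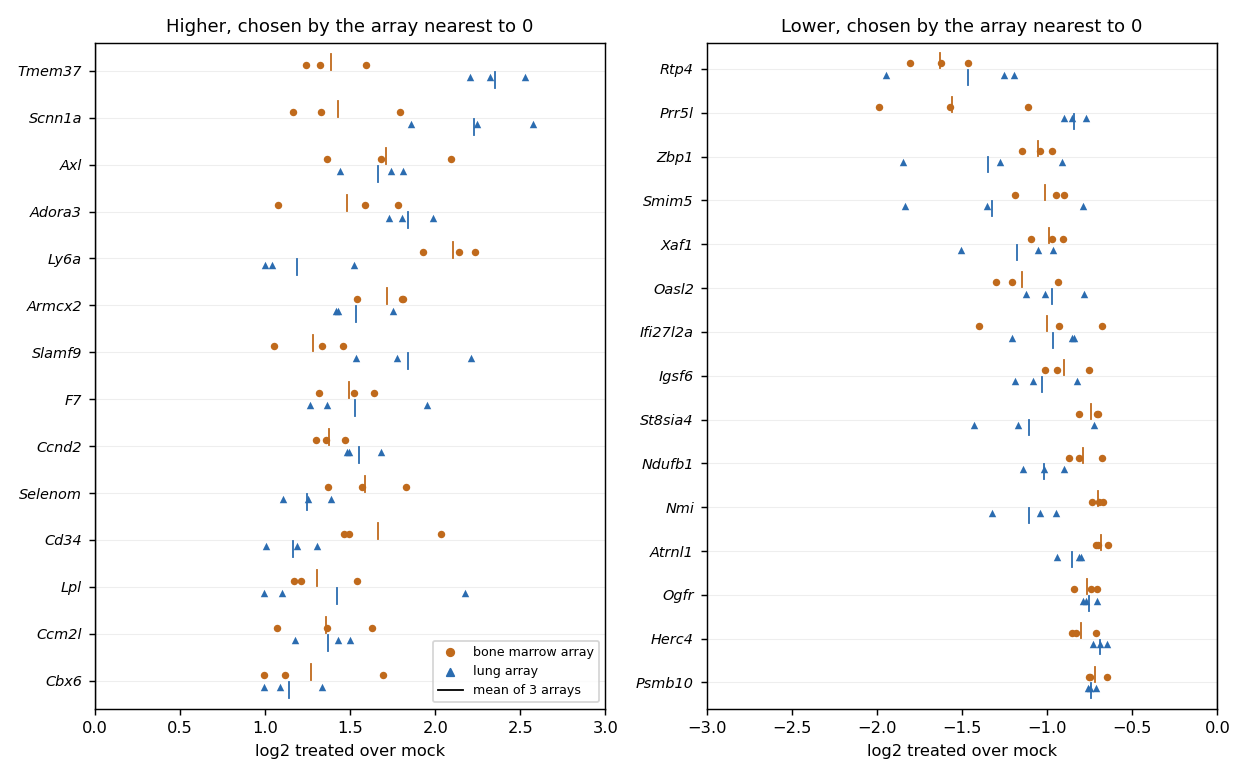
Log2 ratios of treated over mock of 14 higher (left) and 15 lower (right) shared genes with an official symbol, from the 15 in each direction whose array nearest to 0 lay farthest from it. Circles are bone marrow arrays, triangles are lung arrays and ticks are means of 3 arrays; the higher genes start at 0.99 and the lower ones at -0.64, with Tmem37 and Ly6a separated between tissues.

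Among the lower genes, those of the interferon response formed the largest group of the lists examined. All 50 genes of the interferon list were within the limit, and 40 were lower on all 6 arrays, which is 80.0% against 13.2% of all genes within the limit. None was higher. The list median was -0.55, and -0.45 relative to all genes with median centring, under which 39 of the 40 kept an average below 0. Without lung replicate 1, which was the lowest array for 23 of the 40, the same-sign count over the other 5 arrays was 40 lower and 1 higher, and the median was -0.51. The list was compiled with earlier results of these data known, and it is not independent evidence of its direction.

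The promoters of interferon genes are shown because binding sites there are the known point of action of Stat2 and Irf9. The motif searched was GAAANNGAA, the core of the interferon-stimulated response element, on both strands and with overlapping matches allowed, in RefSeq promoters of build GRCm38.p6 from 250 bases before to 50 bases after the first listed start. Of the 40 lower genes 28 had an entry, and 15 of the 28 (53.6%) held the motif, against 8.57% of all 27025 promoters. Of the 10 interferon genes that were not shared, 6 held it as well. The 4 lower genes with the lowest average that hold a site before the start are printed over the 250 bases before it, 5′ to 3′ on the strand of the gene, with the sites in capitals.
Ifi207: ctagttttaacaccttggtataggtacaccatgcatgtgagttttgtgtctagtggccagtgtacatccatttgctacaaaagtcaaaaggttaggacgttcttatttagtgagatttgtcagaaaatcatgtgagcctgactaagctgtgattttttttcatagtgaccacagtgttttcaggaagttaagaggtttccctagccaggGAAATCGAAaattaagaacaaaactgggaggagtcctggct
Slfn5: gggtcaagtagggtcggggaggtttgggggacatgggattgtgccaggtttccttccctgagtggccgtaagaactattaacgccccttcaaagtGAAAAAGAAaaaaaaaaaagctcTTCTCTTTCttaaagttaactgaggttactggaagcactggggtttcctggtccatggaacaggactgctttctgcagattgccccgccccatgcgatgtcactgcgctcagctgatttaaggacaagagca
Isg15: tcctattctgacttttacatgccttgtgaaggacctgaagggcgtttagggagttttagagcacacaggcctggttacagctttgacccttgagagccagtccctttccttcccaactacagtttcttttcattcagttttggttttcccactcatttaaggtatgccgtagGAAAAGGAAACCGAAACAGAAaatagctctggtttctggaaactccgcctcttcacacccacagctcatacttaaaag
Oas1a: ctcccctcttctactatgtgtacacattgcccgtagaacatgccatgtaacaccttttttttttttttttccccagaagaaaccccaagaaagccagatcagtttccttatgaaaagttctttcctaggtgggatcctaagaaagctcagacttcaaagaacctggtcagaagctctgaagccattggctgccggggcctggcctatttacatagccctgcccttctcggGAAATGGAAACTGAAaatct
These lie at chr1:173741810-173742059 on the minus strand, chr11:82951852-82952101 on the plus strand, chr4:156200819-156201068 on the minus strand and chr5:120907526-120907775 on the minus strand. Isg15 holds 3 overlapping matches, and Oas1a holds 2.

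In the other 11 genes, the match nearest to the start is shown with up to 8 bases on each side, read 5′ to 3′ on the strand that carries the motif, which is in capitals.
Ddx58: ggccatagGAAATCGAAactgcctc
Ifit3: gtgtttgtGAAAGGGAAgaggaaag
Ifi44: agcctgtaGAAAATGAAgagaaact
Ifih1: agagaatcGAAACAGAAaccgatct
Samd9l: cgaaactgGAAACTGAAgca
Ifit1: agcagtgaGAAACTGAAactgagac
Irgm1: aagaaataGAAACCGAAactgattc
Stat2: agggaaagGAAACTGAAaccagggt
Igtp: taggaactGAAACTGAAagctgttc
Oas1g: gggaaatgGAAACTGAAaatctact
Trim30a: ggaactgaGAAAAAGAAactaaaga
Over the 15 genes there were 26 matches, 14 of them on the strand of the gene and 12 on the other. Of these, 14 began within 100 bases before the start, 9 lay farther before it and 3 after it. A match is a stretch of letters, and binding was not measured.

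Rtp4, an interferon-induced chaperone of receptor transport, had the lowest average of the shared genes, with log2 ratios of -1.47, -1.62 and -1.81 in bone marrow and of -1.95, -1.20 and -1.26 in lung. Its average corresponds to a 2.93-fold lower signal, and the tissues overlapped (limma adjusted p of the tissue difference = 0.604). Zbp1, a sensor of Z-form nucleic acid, gave -0.97, -1.04 and -1.15 in bone marrow and -1.85, -0.91 and -1.28 in lung. Xaf1, which binds the apoptosis inhibitor XIAP, stood at -0.91, -0.97 and -1.09 in bone marrow and at -1.50, -0.97 and -1.05 in lung. Oasl2, of the antiviral oligoadenylate synthetase family, had -0.93, -1.30 and -1.20 in bone marrow and -1.12, -0.78 and -1.01 in lung. By the probes used, the tissues overlapped in all 4 genes, and no tissue difference passed (limma adjusted p from 0.374 to 0.604). The other probes of Xaf1 and Zbp1 were also below 0 on every array, but without overlap. That of Xaf1 gave -0.05, -0.07 and -0.17 in bone marrow and -1.07, -0.55 and -0.75 in lung. That of Zbp1 gave -0.25, -0.57 and -0.38 in bone marrow and -1.42, -0.82 and -0.98 in lung.

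The genes of the factor known to bind such elements were also on the list. Irf9, its DNA-binding part, gave -0.77, -0.70 and -0.91 in bone marrow and -0.47, -0.27 and -0.40 in lung, and the 2 tissues did not overlap (limma adjusted p = 0.0314). Stat2 had -0.49, -0.44 and -0.41 in bone marrow and -0.80, -0.37 and -0.62 in lung. Irf7, the factor that amplifies interferon production, ranged from -1.08 to -0.31 in bone marrow and from -0.90 to -0.45 in lung.

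Other genes of the interferon list were lower to differing degrees. Mx2, of the Mx family of antiviral GTPases, ranged from -0.80 to -0.56 in bone marrow and from -1.51 to -0.78 in lung. This gene is annotated as a transcribed pseudogene. Isg15, a ubiquitin-like modifier, gave -0.32, -0.62 and -0.48 in bone marrow and -1.64, -0.82 and -0.62 in lung. Usp18, which removes Isg15 from proteins, had -0.11, -0.58 and -0.89 in bone marrow and -1.24, -0.92 and -1.11 in lung. Ifit1, which binds foreign RNA caps, lay near 0 on bone marrow replicates 1 and 3, at -0.10 and -0.02, and at -1.50, -0.73 and -0.60 in lung. Oas1a averaged -0.66, and its near-identical relative Oas1g shares its promoter sites, so a probe may read both.

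Of the 40 genes, 27 had the larger response in lung. By the limma test 5 differed between tissues, which is close to the 15.2% called among all genes tested. Of these, Ifi44, Ifi47 and Igtp were lower in lung, while Ifi207 and Irf9 were lower in bone marrow. Mock levels differed between tissues for 32 of the 40 (limma), against 65.9% of all genes tested. The higher level was in lung for 25 of the 32, and for 6542 of the 14577 that differed among all genes tested.

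The 10 interferon genes outside the rule did not all miss it in the same way. Ifit2 missed it by 1 array, with 0.25 on bone marrow replicate 3 and between -1.44 and -0.11 elsewhere, and Oas3 by 0.06 on bone marrow replicate 1. Rsad2, which encodes the antiviral enzyme viperin, had 0.29, 0.12 and 0.03 in bone marrow and -0.90, 0.03 and 0.00 in lung. Gbp2 and Gbp3, guanylate-binding proteins that interferon gamma also induces, were above 0 on all 3 bone marrow arrays and below 0 on all 3 lung arrays. Bst2, which tethers budding viruses, averaged 0.02.

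**Figure D3:**
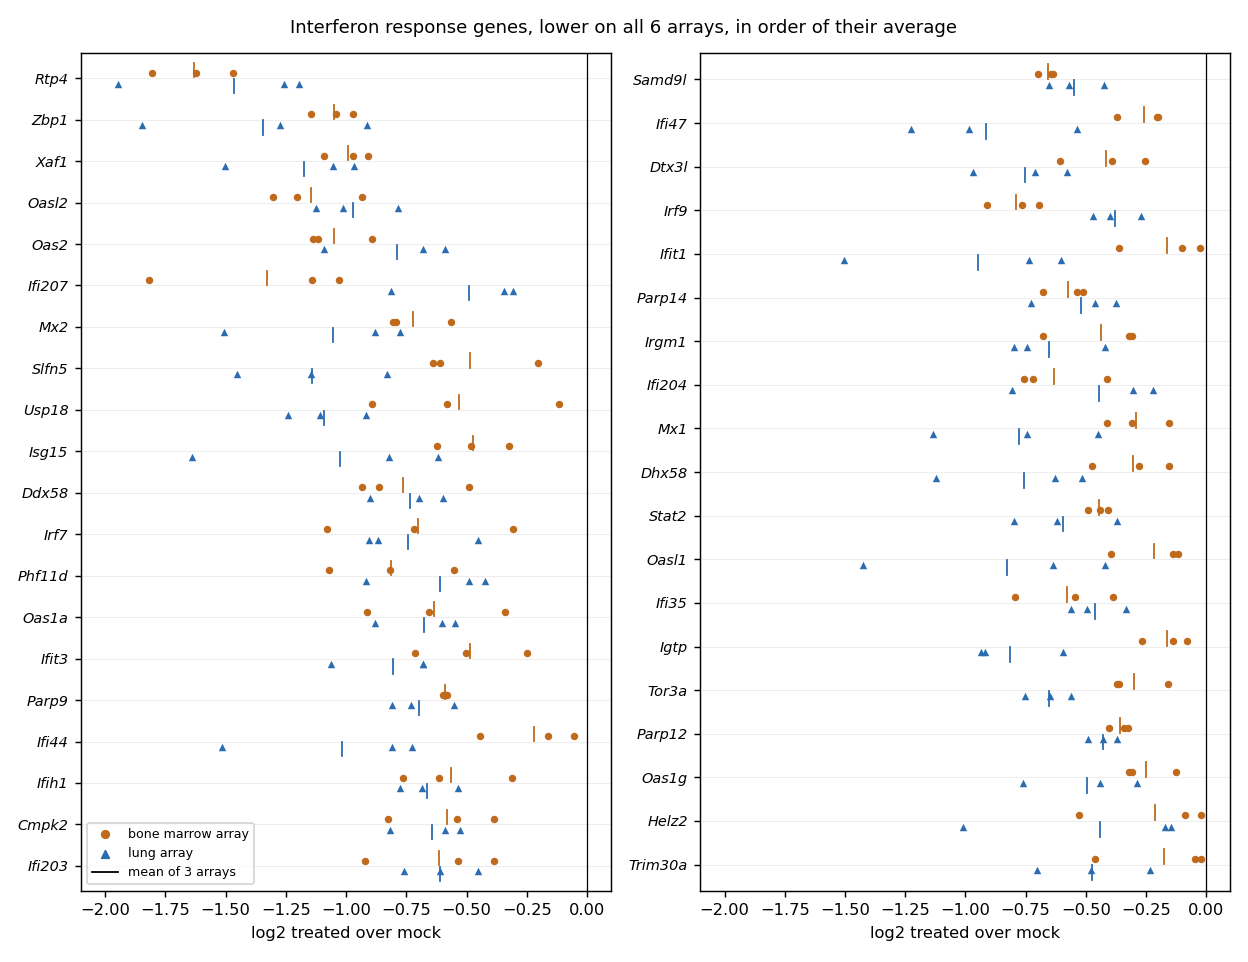
Log2 ratios of treated over mock of 39 of the 40 interferon response genes that were lower on all 6 arrays, in order of their average, with Rtp4 at the top left (-1.55) and Trim30a at the bottom right (-0.33). Circles are bone marrow arrays, triangles are lung arrays and ticks are means of 3 arrays; over all 40 genes, lung replicate 1 was the lowest array in 23.

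Genes of antigen presentation were counted by MHC class, and the classes were not compared by a test. Of 17 MHC class I genes within the limit, 3 were lower (H2-T24, Psmb10 and Tapbp), while Tap2 and H2-Q7 were higher, and the list median was -0.02. These shares, 17.6% and 11.8%, are near those of all genes. Psmb10, a catalytic subunit of the immunoproteasome, varied least, at -0.75, -0.65 and -0.75 in bone marrow and -0.75, -0.71 and -0.76 in lung. Tapbp, the tapasin that loads peptides, averaged -0.53, and H2-T24, a non-classical class I gene, averaged -0.82. Of 12 MHC class II genes, 5 were higher (41.7%, against 16.2% of all genes within the limit) and none was lower. The higher ones were H2-Eb2 and the peptide-loading genes H2-Oa, H2-Ob, H2-DMb1 and H2-DMb2. The list median was 0.53, with medians of 0.09 in bone marrow and 0.83 in lung. Of the 12, 2 had no mock signal well above background in bone marrow, H2-Ob among them. Such genes could meet the limit there only through the treated channel, which favours the higher direction. H2-Oa, a subunit of the loading regulator H2-O, gave 0.95, 1.34 and 1.56 in bone marrow and 1.30, 1.34 and 0.66 in lung. The classical class II genes H2-Aa, H2-Ab1, H2-Eb1 and their chaperone Cd74 were not shared. H2-Eb1, for example, had -0.29 on bone marrow replicate 2 and between 1.74 and 2.30 in lung.

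Of the leading lower genes outside the interferon list, some are known interferon targets or partners. Ifi27l2a, an interferon-induced membrane protein, gave -0.68, -0.93 and -1.40 in bone marrow and -1.21, -0.85 and -0.84 in lung. Nmi, which binds Stat proteins, had -0.74, -0.69 and -0.67 in bone marrow and -1.32, -0.95 and -1.04 in lung, and the 2 tissues did not overlap. Others have no such tie in the lists. Ogfr, the opioid growth factor receptor, stayed within a narrow range, at -0.71, -0.74 and -0.84 in bone marrow and -0.79, -0.71 and -0.77 in lung. Herc4, a ubiquitin ligase, averaged -0.74, and Ndufb1, a subunit of respiratory complex I, averaged -0.90. Prr5l, a partner of the mTORC2 kinase complex, gave -1.11, -1.57 and -1.99 in bone marrow and -0.90, -0.77 and -0.85 in lung. By this probe it was lower in bone marrow without overlap, and the difference did not pass (limma adjusted p = 0.0528). Its other probe overlapped between the tissues, at -0.47, -1.09 and -1.18 in bone marrow and -0.92, -0.84 and -0.95 in lung. Padi2, which turns arginine into citrulline, averaged -1.07, Smim5, a small membrane protein, averaged -1.17, and St8sia4, a polysialyltransferase, averaged -0.93. Relb, a subunit of NF-kappaB that was chosen after its values were seen, ranged only from -0.91 to -0.63.

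Immediate early genes, transcribed within minutes of a stimulus, did not move as 1 group. Of 24 within the limit, 7 were lower on all 6 arrays (29.2%, against 13.2% of all genes within the limit). None was higher, and the list median was -0.17. With median centring it was -0.11 relative to all genes, and 5 of the 7 kept an average below 0, while Fosl2 and Zfp36 turned. Atf3, a stress-induced transcription factor, gave -1.99, -1.38 and -2.41 in bone marrow but only -0.19, -0.17 and -0.11 in lung, and this tissue difference passed (limma adjusted p = 0.00436). Nr4a2, an orphan nuclear receptor, had -0.48, -0.72 and -0.74 in bone marrow and -1.97, -1.08 and -0.997 in lung. Its tissue difference ran the other way and did not pass (adjusted p = 0.0954). Klf2 and Fosb both averaged -0.62. The best known members of the class were not shared: Fos had 0.49 on bone marrow replicate 2 and -0.63 on replicate 1, Jun lay between 0.13 and 0.18 in lung and between -0.60 and -0.25 in bone marrow, and Egr1 was higher on 5 of 6 arrays, at 0.38, 0.85 and -0.32 in bone marrow and between 1.38 and 1.58 in lung.

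Of 12 genes of the circadian clock within the limit, 3 were lower and 1 was higher. Per1, a clock repressor, averaged -0.57, yet its other probe averaged 0.08. Cry2 and Clock averaged -0.30 and -0.13, and with median centring they stood at 0.01 and 0.11. Dbp and Tef, output factors of the clock, went in opposite directions in the tissues: Tef averaged -1.41 ± 0.24 in bone marrow and 0.67 ± 0.11 in lung.

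Further gene families were counted next. Their lists were compiled with earlier results of these data known, so the counts are not independent evidence of a direction. Of 11 genes of the Armcx, Bex and Tceal families, most of them X-linked, 8 were higher on all 6 arrays and none was lower. That is 72.7%, against 16.2% of all genes within the limit, and the list median was 0.44. Of the 11, 2 had no mock signal well above background in bone marrow and 1 had none in lung. Such genes could meet the limit there only through the treated channel, which favours the higher direction. All 8 kept an average above 0 with median centring and with processed signals. After Armcx2, the largest averages were those of Bex4, Bex6 and Bex3, of which Bex6 lies on chromosome 16. Bex4 gave 0.14, 0.40 and 0.45 in bone marrow and 0.92, 0.66 and 1.49 in lung. Bex3 had means of 0.28 ± 0.16 in bone marrow and 0.96 ± 0.09 in lung (limma adjusted p of the tissue difference = 0.00775). In mock bone marrow Bex4 was not well above background on any array, and its treated signal was at least 1.24-fold higher. Members of these families are similar in sequence, and a probe may read more than 1.

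Of 16 genes listed as responders to histone deacetylase inhibitors, 6 were higher and none was lower, with a list median of 0.21. The share of higher genes is 37.5%, against 16.2% of all genes within the limit. The metallothioneins Mt2 and Mt1 bind zinc and other metals. Mt2 gave 1.34, 1.30 and 0.84 in bone marrow and 0.89, 1.02 and 1.65 in lung. Mt1 averaged 0.80. Cdkn1a, the p21 cell cycle inhibitor and a textbook target of this drug class, was among the 6. Gabarapl1, an autophagy protein, averaged 0.53, with every array between 0.39 and 0.78. Crip2, a LIM domain protein, averaged 0.25 ± 0.03 in bone marrow and 0.97 ± 0.10 in lung (SD, n = 3, limma adjusted p of the difference = 0.00306).

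Genes of DNA methylation and histone deacetylation, among them those of enzymes that the drugs inhibit, were counted as well. Of 16 genes for DNA methyltransferases, demethylases and methyl-DNA binders, Tet3 alone was shared. It was lower (6.25% of the list, against 13.2% of all genes within the limit). Tet3 had an average of -0.17 that became 0.14 with median centring. Its other 2 probes averaged -0.04 and 0.04 with both signs, so this call rests on 1 probe. Dnmt1, the maintenance methyltransferase, averaged -0.10 with both signs in each tissue. Of 17 histone deacetylase genes, 2 were higher and 1 lower (11.8% and 5.88%, against 16.2% and 13.2% of all genes within the limit). Hdac7 averaged 0.53 with every array between 0.39 and 0.60, and Hdac9 averaged 0.77. Hdac5, which belongs to class IIa as they do, gave -0.44, -0.46 and -0.70 in bone marrow and -0.31, -0.29 and -0.33 in lung. The class I genes Hdac1, Hdac2 and Hdac3, whose products entinostat inhibits, averaged 0.11, -0.03 and 0.06 and were not shared. An array measures RNA, so enzyme activity was not assessed.

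Selenoproteins carry the amino acid selenocysteine and mostly serve redox reactions. Selenom, a selenoprotein of the endoplasmic reticulum, was among the leading genes, at 1.37, 1.57 and 1.83 in bone marrow and 1.25, 1.39 and 1.11 in lung. Of 18 selenoprotein genes, 4 were higher and 2 were lower (22.2% and 11.1%, against 16.2% and 13.2% of all genes within the limit). The list median was 0.03, and the 2 lower ones (Msrb1 and Gpx4) turned sign with median centring. Selenow averaged 0.46 and Selenon 0.45.

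Chaperone and metabolic genes were spread over both directions. Of 13 heat shock genes, 3 were higher and 2 lower (23.1% and 15.4%, against 16.2% and 13.2% of all genes within the limit). Hspa5, the chaperone of the endoplasmic reticulum, gave 1.41, 1.31 and 0.53 in bone marrow and 0.34, 0.40 and 0.78 in lung. Of 21 glycolysis genes, 5 were higher (23.8%), and the 3 lower ones (Hk1, Hk2 and Pfkfb3, 14.3%) turned sign with median centring. Pgk1, Ldha, Gapdh and Pgam1 averaged between 0.40 and 0.52. Of 17 genes of cholesterol and fatty acid synthesis, 3 were higher and 2 lower (17.6% and 11.8%). Scd2, a fatty acid desaturase, gave 1.12, 1.43 and 0.86 in bone marrow and 0.89, 1.24 and 1.34 in lung, while Insig1, of sterol sensing, averaged -0.57. Of 15 clustered histone genes H2bc6 was higher and H2ac10 lower, at -0.39, which became 0.22 with median centring.

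Genes that DNA methylation is known to silence gave small counts. Of 11 imprinted genes, 5 were higher and 1 lower, with a list median of 0.17. These shares are 45.5% and 9.09%, against 16.2% and 13.2% of all genes within the limit. Slc22a18, an imprinted transporter gene, gave 0.01, 0.14 and 0.35 in bone marrow and 1.55, 0.92 and 0.65 in lung. Plagl1, an imprinted zinc finger gene, averaged 0.43 by its brightest probe and 0.42 and 0.07 by its others, and Ascl2 averaged -0.38. Of 5 germline genes within the limit, Dpep3 was higher and Tex101 and Tuba3b were lower, all with averages below 0.5 in size. Of 27 germline genes listed, 13 were tested.

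**Figure D4:**
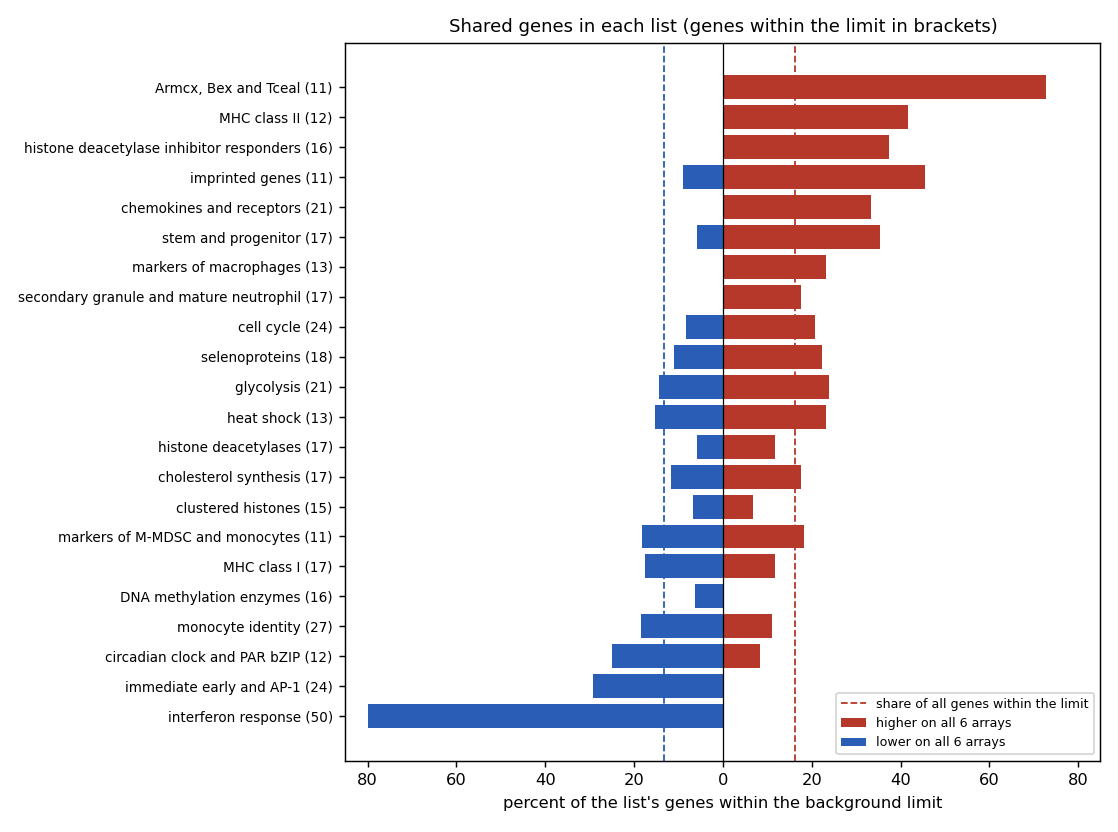
Share of the genes of each list that were higher (right, red) or lower (left, blue) on all 6 arrays, for the 22 lists with at least 10 genes within the background limit and a shared gene. Dashed lines mark the shares of all genes within the limit (16.2% and 13.2%); the interferon list reaches 80.0% to the left and the Armcx, Bex and Tceal list 72.7% to the right.

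Markers of other cell types entered the shared set to different extents. Of 13 macrophage markers within the limit 3 were higher (Siglecf, Itgax and Car4), which is 23.1% against 16.2% of all genes within the limit. The list's median ratio on an array lay between -0.011 and 0.075 in bone marrow and between 1.72 and 2.78 in lung. Siglecf, an antigen of alveolar macrophages and eosinophils, gave 0.52, 0.90 and 0.90 in bone marrow and 2.97, 1.72 and 1.48 in lung. Its other probe averaged 0.44, stood at -0.01, 0.09 and 0.08 in bone marrow and did not keep 1 sign. Mock bone marrow had no signal well above background for C1qa, Mertk, Folr2, Lyve1, Fabp1 and Itgax on any array, while all 17 macrophage markers tested were well above background on every mock lung array. Of 17 genes of mature neutrophils, 3 were higher (17.6%), near the 16.2% of all genes within the limit. They differed between the lung arrays: S100a9, a calgranulin, gave 0.48, 0.36 and 0.36 in bone marrow and 2.31, 3.35 and 0.26 in lung. S100a8 and Lcn2 likewise had their highest value on lung replicate 2. Elane, neutrophil elastase, averaged 0.26.

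Scgb1a1, a secretory protein of airway epithelium, averaged 0.19 ± 0.06 in bone marrow and 1.56 ± 1.03 in lung, and Cdh1, the epithelial cadherin, averaged 0.71 ± 0.22 and 1.32 ± 0.12. Of 13 epithelial markers tested, 2 were well above background in mock bone marrow on all arrays and 10 in mock lung. The surfactant genes Sftpa1, Sftpb, Sftpc and Sftpd were not well above background in mock bone marrow, and Epcam, Nkx2-1 and Cldn18 were not in mock lung. Cd79a, a part of the B cell receptor, was the only B cell marker shared, at -0.11, -0.33 and -0.16 in bone marrow and -1.03, -1.38 and -1.60 in lung. Its other probe averaged only -0.23, with -0.03, -0.19 and -0.12 in bone marrow and -0.20, -0.25 and -0.56 in lung. The B cell list's median ratio lay between 0.058 and 0.199 in bone marrow and between -1.86 and -1.04 in lung, and Ms4a1 was not well above background in mock bone marrow. No T cell, mast cell, fibroblast or red cell marker was shared, and Eomes, of NK cells, averaged -0.29. The part of such cells in the shared genes was not tested.

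The size of the response could be tested between the tissues, although the common sign bounds how far it can differ. By limma 585 of the 5170 shared genes (11.3%) differed between lung and bone marrow, against 15.2% of all genes tested. The response was larger in lung for 336 of the 395 higher genes that differed and for 137 of the 190 lower genes. Among all genes tested it was larger in lung for 2577 of the 3367 that differed, so this lean is not particular to the shared genes. The count of 585 was 314 with scaling between arrays and 1 with median centring. With scaling, the differences of Ly6a, Tmem37, Scnn1a and Atf3 no longer passed; with processed signals those of Pf4, C3ar1, Tmem37, Scnn1a and Crip2 did not. It was 291 without bone marrow replicate 1, 266 without bone marrow replicate 2 and 373 without lung replicate 3.

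Several of the genes that differed were close to 0 in bone marrow. Etv5, an ETS transcription factor, gave 0.25, 0.25 and 0.14 in bone marrow and 1.91, 1.63 and 1.73 in lung (limma adjusted p = 0.000455). Bcl2l1, which encodes the survival protein Bcl-xL, had 0.04, 0.05 and 0.10 in bone marrow and 1.20, 1.28 and 1.39 in lung (adjusted p = 0.000611), while its other probe averaged 0.24 and lay below 0 on 1 array. Pdgfb, a growth factor, and Rac3, a small GTPase, had means of 0.10 ± 0.12 and 0.11 ± 0.03 in bone marrow and of 1.43 ± 0.09 and 1.19 ± 0.09 in lung. For these genes the shared sign rests on bone marrow values near 0.

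Cd81, a tetraspanin, gave 0.64, 0.50 and 0.71 in bone marrow and 2.76, 2.32 and 2.30 in lung (limma adjusted p = 0.000788). Pf4, platelet factor 4, had 0.22, 0.44 and 0.76 in bone marrow and 3.56, 2.80 and 2.75 in lung (adjusted p = 0.00135), and was not well above background in mock bone marrow, where the treated signal was at least 1.39-fold higher. The platelet list as a whole had a median ratio between 0.028 and 0.150 in bone marrow and between -0.209 and 0.023 in lung. Among lower genes, Bcl11a, a zinc finger repressor, gave -0.34, -0.37 and -0.26 in bone marrow and -1.70, -1.60 and -2.14 in lung (adjusted p = 0.00158), but its other probe averaged only -0.16. Calhm6, Frat1 and Cutc were also lower in lung, with differences of -1.36 ± 0.14, -1.10 ± 0.12 and -0.68 ± 0.09 (standard error). Pi16, a peptidase inhibitor, averaged -1.12 and its tissue difference did not pass (adjusted p = 0.061).

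**Figure D5:**
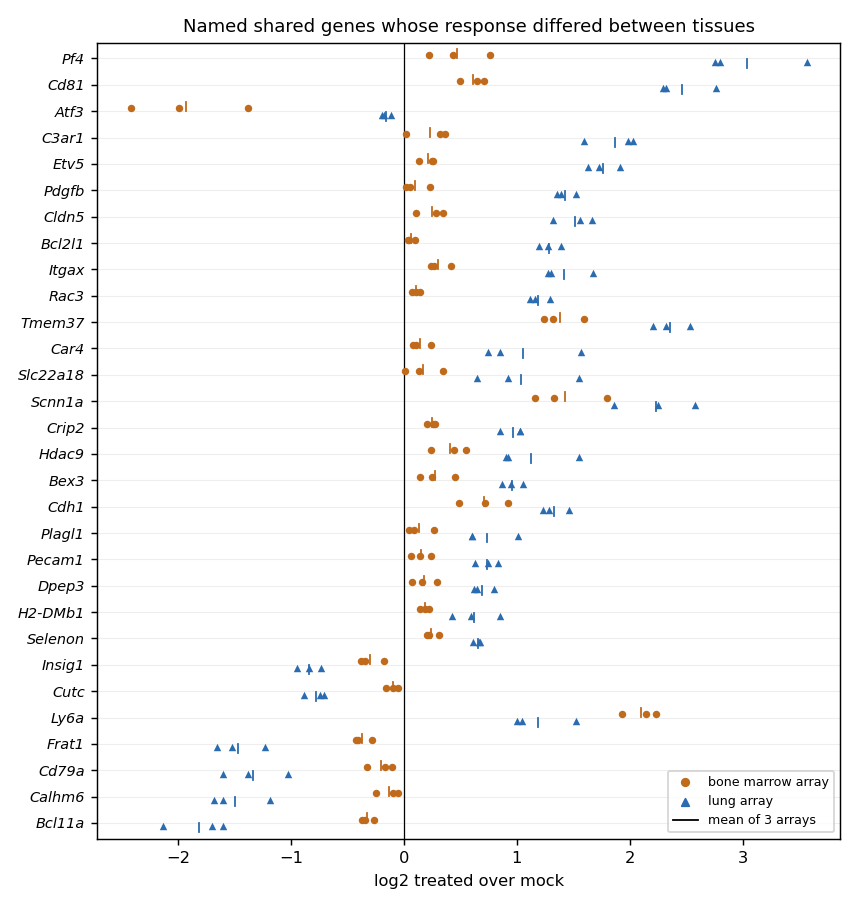
Log2 ratios of treated over mock of 30 shared genes whose response differed between tissues by limma, ordered by lung minus bone marrow from Pf4 (2.57) to Bcl11a (-1.49). They come from the 125 genes of the naming rule, which leaves out C5ar1 and Irf9, for example. Circles are bone marrow arrays, triangles are lung arrays and ticks are means of 3 arrays; most genes lie nearer to 0 in bone marrow, with Atf3 and Ly6a the exceptions.

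Mock levels often differed between the tissues, in the shared genes about as often as in all genes tested. In mock cells 3542 of the 5170 (68.5%) differed between lung and bone marrow by limma, against 65.9% of all genes tested. The higher level was in lung for 1446 of the 3542, and for 6542 of the 14577 that differed among all genes tested. This mock signal also enters each ratio, so the comparisons are not independent. Slamf9 and Axl were higher in mock lung by 3.37 and 2.98 (log2, adjusted p = 1.5e-07 and 1.9e-07). Selenom and Zbp1 differed by -0.15 and 0.02, and these differences did not pass (adjusted p = 0.11 and 0.86).

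Genes detected in a single channel were also counted. In 73 shared genes the mock signal was not well above background on any array while the treated signal was so on 2 or 3 arrays of each tissue. Within the limit 134 genes had this pattern. The reverse pattern was found in 4 genes, all known by identifiers only. The pattern itself fixes the direction, so these counts are a description. For Igf2bp3, an RNA-binding protein best known from embryonic tissue, the treated signal was at least 1.29-fold higher in bone marrow and at least 1.52-fold higher in lung. In mock bone marrow alone, Itgax, Cldn5, H2-Ob and Dpep3 were not well above background on any array, and their treated signals there were at least 1.24, 1.19, 1.45 and 1.13 times as high. By chromosome, the share of genes within the limit that were higher on all arrays ran from 12.0% on chromosome 12 to 19.8% on chromosome 15, and was 18.2% on the X chromosome.

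Other probes of the same genes gave a check of the signs on these same RNAs. The shared genes had 1372 other probes within the limit, in 1125 genes. Of these probes 44.0% had the same sign as the gene on all 6 arrays, 2.99% had the opposite sign on all 6, and 84.2% had an average in the same direction. For genes at least 0.5 from 0 on every array, 75.0% of 48 other probes had the same sign on all 6 arrays and none had the opposite sign on all 6. Those of F7, Ogfr and Padi2 lay close to the probe used, with averages of 1.57, -0.71 and -1.06. Those of Cbx6 ranged from 0.23 to 0.69, and that of Cd34 averaged 0.27, below the brightest probe but in the same direction. Other probes of Flt3, Selenon, Gapdh and Plagl1 included 1 each that did not keep 1 sign.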

How the data were processed

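The scanner files deposited for the 6 arrays hold spot intensity and local background from Agilent Feature Extraction, per the file headers. The log2 ratio tables deposited per tissue were made by the authors with limma, per the submitters' processing notes; they equal Cy5 over Cy3 on median signals after normexp and loess (r of 1 on every array, 43173 spots), although their headings name mock over treated. Here mean signals were corrected with normexp (offset 50) and loess in limma 3.58.1 under R 4.3.3, without scaling between arrays and without control spots. Spots of a probe were averaged. A probe was kept if 2 or more arrays of any tissue and channel had it well above background (27726 of 39429), and the brightest kept probe stood for a gene. Of all probes 26575 were named by RefSeq identifier, 2602 by symbol and 492 by synonym, and 9760 kept the file's name; 1138 shared genes carry an identifier only. Counted by probe, 6404 of 22073 probes within the limit were shared, 3402 higher and 3002 lower.

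limma was fitted on all 6 arrays with a mean per tissue (4 residual and 3.49 prior degrees of freedom). Its two-sided moderated p values were adjusted by Benjamini-Hochberg over all 22127 genes, with a threshold of 0.05. The mock level was tested on Cy3 after scaling between arrays on mean intensity. The test was tried on simulated data.

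The members and lists were chosen with earlier results of these data known. Named are the 15 highest and 15 lowest shared genes by the array nearest to 0, the 10 highest and 10 lowest by average, up to 4 per list by size of average, the 5 with the smallest p of the tissue difference in each direction, and Ccr2 and Cxcr2. Other list members, genes outside the rule named for contrast and the limit of 0.5 on every array were chosen after values were seen. Alternatives were processed signals, negative-control background, median signals, median centring, scaling between arrays, other probe filters, the mean of probes, leaving out each array and a replicate block. RefSeq promoters covered 60.1% of genes within the limit, so a comparison of promoter composition over all shared genes would be void. Some items, among them genes counted in the lists, are not reported here by name.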

Additional observations from a re-analysis of the deposited data

Results flagged for a closer look

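Of the 125 genes of the naming rule, 30 differed in the size of their response between the tissues. The test was a direct limma test of lung minus bone marrow (adjusted p from 0.000455 to 0.0478). Of these, 10 were named for the smallest p of this same difference, which leaves 20 of the other 115, against 11.3% of the shared genes and 15.2% of all genes tested. With median centring none of the 30 passed, although all kept their direction, and with scaling between arrays 22 passed. With processed signals 15 passed in the same direction, and Cdh1, Cldn5, Crip2, Dpep3 and Itgax turned; with the negative-control background 17 passed and Cdh1 turned. All 30 have the same sign in both tissues by the way they were chosen, and slide and tissue cannot be told apart. The values below are log2 differences, lung minus bone marrow, from 3 arrays per tissue.

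Among genes higher in treated cells, the response was larger in lung for Pf4 by 2.57, Cd81 by 1.84, C3ar1 by 1.63, Etv5 by 1.54, Pdgfb by 1.32, Cldn5 by 1.26, Bcl2l1 by 1.23, Itgax by 1.11, Rac3 by 1.08, Tmem37 by 0.97, Car4 by 0.91, Slc22a18 by 0.87 and Scnn1a by 0.80. It was larger by less for Crip2 at 0.72, Hdac9 at 0.72, Bex3 at 0.68, Cdh1 at 0.62, Plagl1 at 0.61, Pecam1 at 0.59, Dpep3 at 0.51, H2-DMb1 at 0.44 and Selenon at 0.41. Ly6a was the named higher gene with the smaller response in lung, at -0.91.

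Among genes lower in treated cells, Bcl11a differed by -1.49, Calhm6 by -1.36, Cd79a by -1.13, Frat1 by -1.10, Cutc by -0.68 and Insig1 by -0.54, each lower in lung. Atf3 differed by 1.77, being lower in bone marrow. The other probes of Bcl11a and Cd79a averaged only -0.16 and -0.23 over the tissues.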

How the results depend on the processing

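Median centring in place of loess had the widest effect: 801 genes were called on the average of the tissues in place of 8098, 328 were lower on all 6 arrays in place of 2320, and 1 shared gene differed between tissues in place of 585. Under it 1736 of the 5170 shared genes (33.6%) kept their place and direction, and Cry2, Clock, Tet3 and H2ac10 turned to 0.0088, 0.11, 0.14 and 0.22. With scaling between arrays 314 shared genes differed between tissues. The cause of these changes was not tested. With the mean of all kept probes Ms4a4c turned to -0.084, since its probes disagree. Processed signals kept 4399 of the shared genes, the negative-control background 4927 and median signals 4718. Apart from these 5 turns, all 125 named genes kept the direction of their average in every alternative, and the average moved by more than the spread between arrays for 82 of them with median centring, 50 with the negative-control background and 49 with processed signals.

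Leaving out an array gave 5603 to 7767 genes called on the average, 3042 to 3540 higher and 2456 to 2994 lower genes, 266 to 515 shared genes differing between tissues and 3137 to 3584 differing in mock level, and 21 to 29 of the 30 named tissue differences passed. The deviations of same-numbered arrays of the 2 tissues had correlations of 0.00044, 0.116 and 0.047. These correlations cannot decide whether same-numbered arrays share mice, so results with a replicate block are given as well. With a replicate block 7399 genes were called on the average, 435 shared genes differed between tissues and 3292 in mock level; of the 30 named tissue differences 28 passed, those of Slc22a18 and H2-DMb1 standing at adjusted p = 0.0669 and 0.0579 (limma). With 3 arrays per tissue, no dye exchange and 1 slide per tissue, a dye effect and a slide effect cannot be told apart from treatment and tissue.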
